A study of Homo sapiens with 8 samples.

Results

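At 1570 of 27541 CpG sites, 5.70% of those with a methylation level in every line, the DNA of all 4 prostate cell lines was methylated. A site was counted when its beta value was above 0.8 in each of the lines; beta runs from 0 to 1 and is the part of a site's signal that comes from methylated DNA. These are called the always-methylated sites here. The lines were 3 cancer lines, grown from metastatic prostate carcinomas (DU145, PC3 and the androgen-sensitive LNCaP-FGC), and RWPE-1, the control line, which is non-cancerous prostate epithelium immortalized with papillomavirus genes. The labels give no treatment, passage or culture condition for any of them. Genomic DNA of each line was hybridised to 1 Illumina HumanMethylation27 array, which samples mostly promoter CpGs, so no line had a repeat array and a difference between lines has no replicate check. RWPE-1 is a single immortalized line and does not stand for normal prostate tissue in general.

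DNA methylation at CpG sites, once set by DNMT3A and DNMT3B, is copied to the new strand by the maintenance enzyme DNMT1 when DNA is replicated. Promoter CpGs in dense clusters (CpG islands) are usually free of methylation, while methylated promoters are known from genes that a tissue keeps silent, among them many genes of the germ line and of other cell types. The deposited tables give the sites by identifier only, and the gene tables at hand do not list these identifiers. The genes, positions, CpG islands and sequences of the always-methylated sites are therefore not described here, and their expression was not analysed.

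The always-methylated sites were picked on the betas of all 4 arrays, so their betas are given as a description without a test. Their median beta was 0.925 in DU145, 0.904 in PC3, 0.8999 in RWPE-1 and 0.889 in LNCaP-FGC. The quartiles over sites ran from 0.896 to 0.952 in DU145, from 0.869 to 0.936 in PC3, from 0.868 to 0.932 in RWPE-1 and from 0.854 to 0.924 in LNCaP-FGC. These intervals are spread between sites and overlap in every pair of lines, which does not measure the site-by-site differences given below. The highest beta of any always-methylated site was between 0.987 (RWPE-1) and 0.993 (DU145) on the 4 arrays.

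**Figure D1:**
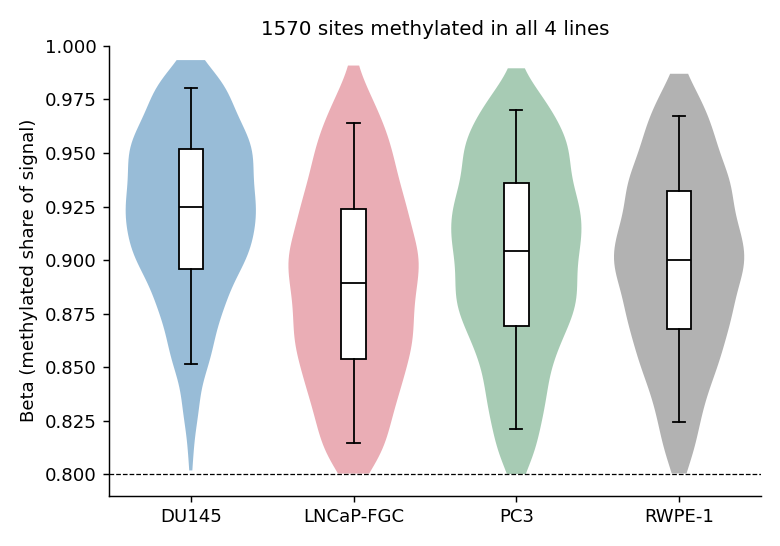
Beta of the 1570 always-methylated sites (vertical axis, from the threshold of 0.8, dashed, to 1) in each line (horizontal axis). Shapes show the density of sites, boxes the median and quartiles, and whiskers the 5th and 95th percentiles over sites, which is spread between sites and not replicate error. The distributions overlap widely, which does not measure differences site by site. The median was highest in DU145 (0.925) and lowest in LNCaP-FGC (0.889).

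Most of these sites were well above the threshold. All 4 lines exceeded 0.85 at 989 of them (63.0%), 0.9 at 431 (27.5%) and 0.95 at 84 (5.35%). In single lines, a beta over 0.9 was found at 72.1% of the always-methylated sites in DU145, 52.9% in PC3, 49.8% in RWPE-1 and 42.1% in LNCaP-FGC. The most completely methylated site, cg06303238, had betas of 0.993 in DU145, 0.989 in PC3, 0.989 in LNCaP-FGC and 0.987 in RWPE-1. The next, cg01399317, had 0.992, 0.9896, 0.982 and 0.984 in the same order. At both sites the 4 lines lay within 0.01 of one another.

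Many sites lay close to the threshold on either side. The lowest beta over the lines was between 0.8 and 0.81 at 115 always-methylated sites, and it was between 0.79 and 0.8 at 104 sites that missed the threshold. Just inside was cg13857100, with 0.941 in DU145, 0.8001 in PC3, 0.854 in LNCaP-FGC and 0.921 in RWPE-1. Also just inside was cg04032566, with 0.916, 0.898, 0.8003 and 0.854 in the same order. Just outside was cg07790638, with 0.885 in DU145, 0.79992 in PC3, 0.813 in LNCaP-FGC and 0.873 in RWPE-1. The other, cg11105610, had 0.889, 0.896, 0.899 and 0.79990 in that order. In each of these 4 sites a single line set which side of the threshold the site fell on.

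Differences between the lines were small at most always-methylated sites, which in part follows from the rule, since no 2 values above 0.8 can differ by more than 0.2. The gap between the highest and the lowest line had a median of 0.0483, with quartiles of 0.0290 and 0.0789. It was over 0.1 at 212 sites (13.5%), against 50.4% of all 27541 sites, and under 0.02 at 192 (12.2%), against 19.6% of all. Nothing is read from these contrasts, because the rule used these betas. For scale, the 12839 sites below 0.2 in all 4 lines, to which the same limit of 0.2 applies, had a median gap of 0.0237.

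The 212 sites with a gap over 0.1 had DU145 as the highest line in 162 cases. Their lowest line was LNCaP-FGC at 90 sites, RWPE-1 at 65, PC3 at 48 and DU145 at 9. The widest gap was at cg19456540, with 0.9896 in DU145, 0.975 in PC3, 0.980 in LNCaP-FGC and 0.803 in RWPE-1. At cg13081704 the same pattern was seen, with 0.983, 0.979, 0.954 and 0.802. At both sites the cancer lines were near full methylation and the control line lay just above the threshold. Of the 22 sites with a gap over 0.15, LNCaP-FGC was lowest at 11, RWPE-1 at 8, DU145 at 2 and PC3 at 1.

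Over all always-methylated sites, DU145 was the highest line at 984 (62.7%), PC3 at 278, RWPE-1 at 198 and LNCaP-FGC at 110. LNCaP-FGC was the lowest at 679 (43.2%), RWPE-1 at 408, PC3 at 402 and DU145 at 81. Compared site by site, the median difference between DU145 and LNCaP-FGC was 0.0251, with DU145 higher at 85.6% of the sites. DU145 exceeded RWPE-1 by a median of 0.0162 and PC3 by 0.0153. PC3 and RWPE-1 were the most even pair in direction, with PC3 higher at 51.5% of the sites and a median difference of 0.000625. They were not the closest pair, as their median absolute difference was 0.0202. Over all pairs this value ran from 0.0194 (DU145 and RWPE-1) to 0.0279 (DU145 and LNCaP-FGC). The median of LNCaP-FGC minus RWPE-1 was -0.00841.

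This order was not the same on the deposited, rescaled and quantile-normalized values. The DU145 array had the highest 99th percentile over all sites (0.975, against 0.9495 to 0.963 on the other arrays) and also the lowest median, 0.0171, over the sites below 0.2 in all lines (0.0273 to 0.0384 on the others). When each array was rescaled linearly from its 1st to its 99th percentile, the medians of the always-methylated sites became 0.949 in DU145, 0.947 in RWPE-1, 0.938 in PC3 and 0.923 in LNCaP-FGC. RWPE-1 was then the highest line at 48.7% of them and DU145 at 23.5%. When the arrays were quantile normalized, which gives all of them 1 distribution, the medians were 0.920 in RWPE-1, 0.902 in PC3, 0.898 in LNCaP-FGC and 0.895 in DU145. Quantile normalization lowers high betas on the array that has the most of them. DU145 had 24.2% of all sites above 0.8, against 13.2% to 15.9% on the other arrays. Whether the method itself lowered the place of DU145 on that scale was not tested. The part of array scale in the order of the lines was not tested further, and without repeat arrays array and line cannot be told apart.

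**Figure D2:**
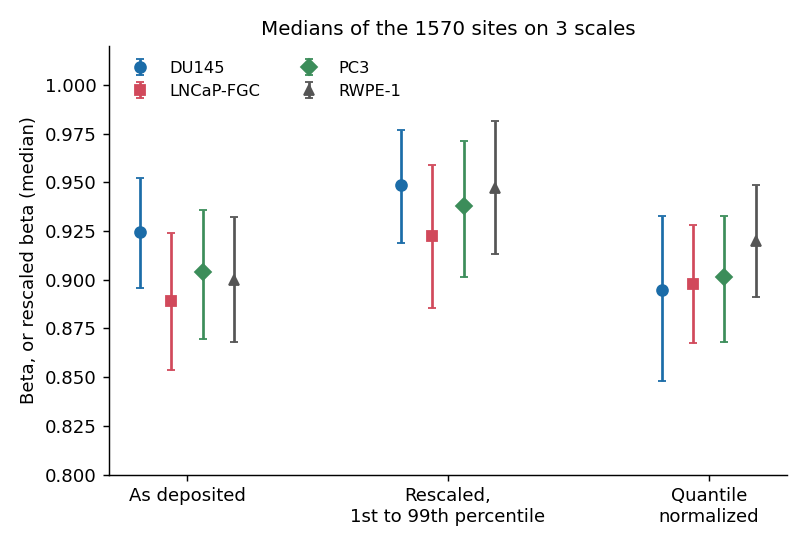
Median beta of the 1570 always-methylated sites in each line (points, with bars from the 25th to the 75th percentile over sites) as deposited, after linear rescaling of each array and after quantile normalization. DU145 was highest as deposited (0.925) and after rescaling (0.949) and lowest after quantile normalization (0.895). The bars of all lines overlap on each scale, which does not measure differences site by site.

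Across the 1570 sites the betas of any 2 lines were correlated, with a Pearson's r from 0.531 (LNCaP-FGC and RWPE-1) to 0.649 (DU145 and PC3) and a Spearman's rho from 0.545 to 0.688 for the same pairs. A site that was more completely methylated in 1 line thus tended to be so in another. Sites are not independent replicates, each site was read by the same probe in every line, and all values were confined to the range above 0.8, so these values describe the 4 arrays only.

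The lines differed in how many sites were methylated. The always-methylated sites made up 43.1% of the 3645 sites above 0.8 in RWPE-1, 38.9% of 4039 in LNCaP-FGC, 35.9% of 4376 in PC3 and 23.6% of 6652 in DU145. These shares divide the same 1570 sites by the count of each array and differ only through that count. After quantile normalization 1531 sites were above 0.8 in all lines, of which 1378 were among the 1570. That method gives each array 4414 sites above 0.8, so the share of the 1531 sites was 34.7% in every line by construction. As deposited, a further 1633 sites were above 0.8 in exactly 3 lines, 2140 in 2 lines and 3253 in 1 line. Of the methylated sites of RWPE-1, 4.58% were methylated in no other line, against 10.9% in PC3, 19.7% in LNCaP-FGC and 27.3% in DU145. These shares also depend on how many sites each array had above 0.8, and are given for the deposited values only. Levels followed the division by number of methylated lines in part. In DU145 the median beta was 0.925 at the always-methylated sites, 0.907 at its methylated sites shared by exactly 3 lines, 0.889 at those shared by 2 and 0.866 at those methylated in DU145 only. RWPE-1 showed the same steps down, with 0.8999, 0.873, 0.854 and 0.842 in that order. PC3 had 0.904, 0.885, 0.888 and 0.867, highest at the always-methylated sites and lowest at its own. LNCaP-FGC differed little between the divisions, with 0.889, 0.876, 0.886 and 0.887.

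To read a line at sites that its own values had not chosen, each line was left out in turn, and its beta was read at the sites above 0.8 in the other 3. DU145 was above 0.8 at 95.6% of 1642 such sites, against 24.2% of all sites on its array. PC3 was above 0.8 at 85.2% of 1842 sites, against 15.9% of all. RWPE-1 was above 0.8 at 73.2% of 2144 sites, against 13.2%, and LNCaP-FGC at 68.7% of 2285, against 14.7%. The share in the left-out line was thus between 3.96 (DU145) and 5.53 (RWPE-1) times that over all sites. This ratio has a ceiling set by the share over all sites, lowest in DU145, so it does not rank the lines. All sites also include the 12839 below 0.2 in all 4 lines, which raises the ratio in every line. For each left-out line the sites that passed were the same 1570 always-methylated sites. The 4 shares thus differ only in their totals and are not separate checks. The order of the shares changed after quantile normalization, with 85.7% in PC3, 81.5% in DU145, 79.8% in RWPE-1 and 74.3% in LNCaP-FGC. On that scale every line had 16.0% of all sites above 0.8. With 1 array per line these shares carry no test.

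The share also went up with the number of other lines that were methylated. RWPE-1 was above 0.8 at 0.874% of sites with no other methylated line, 21.6% of those with 1, 45.1% of those with 2 and 73.2% of those with 3. The same shares were 4.02%, 23.5%, 39.9% and 68.7% in LNCaP-FGC. They were 2.46%, 25.9%, 53.7% and 85.2% in PC3. DU145, with the most methylated sites of all arrays, had 8.74%, 54.3%, 78.2% and 95.6%.

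**Figure D3:**
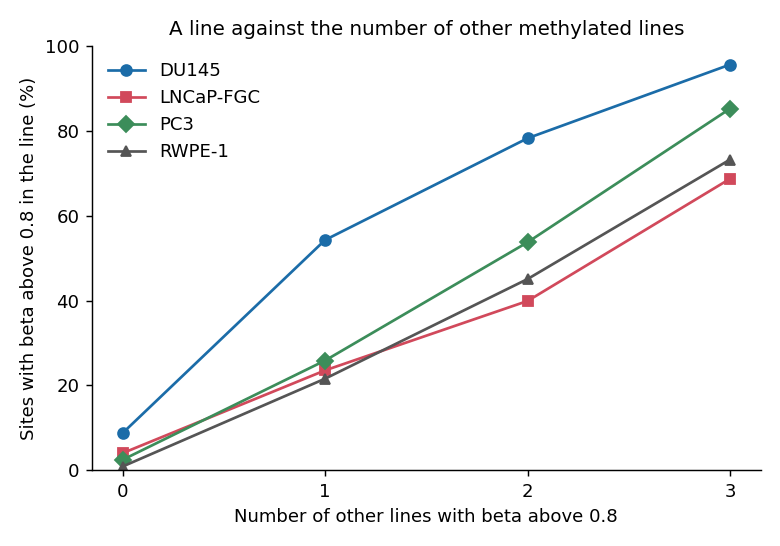
Share of sites with a beta above 0.8 in a line (vertical axis, %) against the number of other lines above 0.8 at the same sites (horizontal axis), with 1 line and marker per cell line. The share goes up at each step in all 4 lines, from 0.874% to 73.2% in RWPE-1 and from 8.74% to 95.6% in DU145.

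Where the left-out line fell short of 0.8, it did so in different ways. DU145 missed at 72 sites, with 17 between 0.7 and 0.8, 42 between 0.2 and 0.7 and 13 below 0.2. PC3 missed at 272, with 148, 107 and 17 in the same ranges. LNCaP-FGC missed at 715 sites, with 277 between 0.7 and 0.8, 361 between 0.2 and 0.7 and 77 below 0.2. RWPE-1 missed at 574 sites, with 169 between 0.7 and 0.8, 312 between 0.2 and 0.7 and 93 below 0.2. Unmethylated readings were thus rare in the left-out line, at 0.792% of the sites in DU145, 0.923% in PC3, 3.37% in LNCaP-FGC and 4.34% in RWPE-1. As a share of the misses alone they were 18.1% in DU145, 6.25% in PC3, 10.8% in LNCaP-FGC and 16.2% in RWPE-1. Over all sites, betas below 0.2 made up 56.5%, 59.4%, 61.1% and 65.3% of the same arrays.

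**Figure D4:**
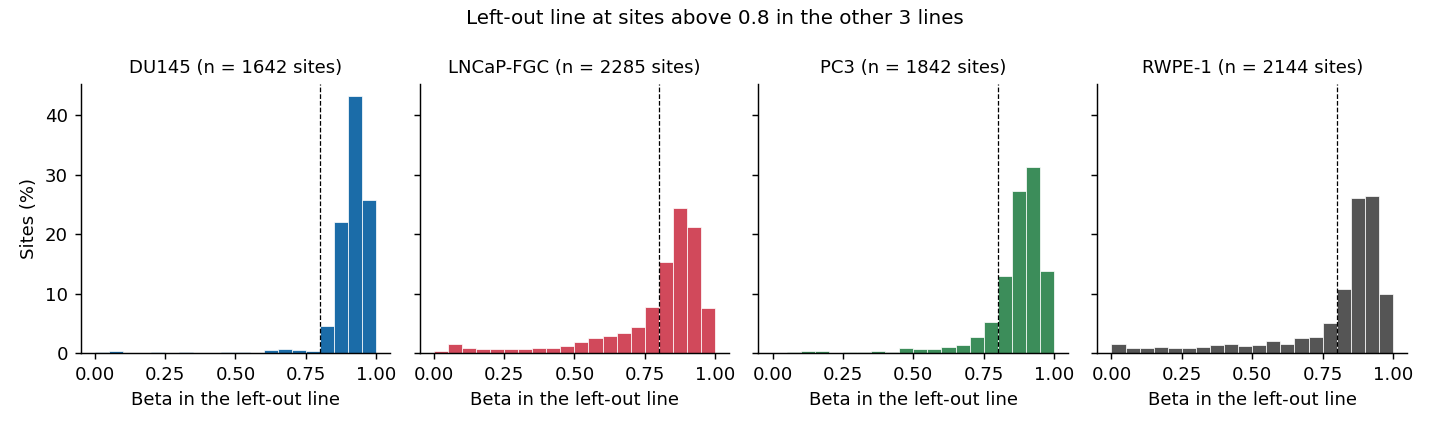
Distribution of beta in the left-out line (horizontal axis, bins of 0.05) at the sites above 0.8 (dashed) in the other 3 lines, as % of those sites (vertical axis). DU145 was above 0.8 at 95.6% of its sites, PC3 at 85.2%, RWPE-1 at 73.2% and LNCaP-FGC at 68.7%. All 4 lines have tails that reach below 0.2, at 13 sites in DU145, 17 in PC3, 77 in LNCaP-FGC and 93 in RWPE-1.

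The share above 0.8 varied with the level of methylation in the other 3 lines, more so in LNCaP-FGC and PC3 than in RWPE-1. The other 3 lines differ for each left-out line, so the bins hold different sites. RWPE-1 was binned by the 3 cancer lines, and each cancer line by a set that includes RWPE-1. At sites where the lowest of the other 3 was between 0.8 and 0.85, LNCaP-FGC was above 0.8 at 53.7% of 766 sites, and where it was over 0.95, at 92.8% of 152. PC3 went from 73.2% of 671 sites to 97.2% of 107 between the same bins. RWPE-1 went from 69.3% of 697 sites to 73.0% of 163, with 74.5% and 76.6% in the bins between. DU145 was at 94.3% of 609 sites in the lowest bin and 98.9% of 89 in the highest. Where all 3 cancer lines were over 0.95, RWPE-1 was below 0.2 at 10 sites (6.13%), against 4.02% where their lowest was between 0.8 and 0.85. In LNCaP-FGC the same shares were 1.32% (2 sites) and 5.74%.

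The contrast of LNCaP-FGC and PC3 with RWPE-1 was also seen on the other scales. After quantile normalization the share above 0.8 went from 62.9% in the lowest bin to 93.8% in the highest in LNCaP-FGC, from 76.4% to 97.5% in PC3 and from 66.3% to 95.3% in DU145, while it was 81.5% and 75.5% in RWPE-1. After linear rescaling it went from 51.8% to 86.5% in LNCaP-FGC and from 71.1% to 97.2% in PC3, against 70.9% and 77.5% in RWPE-1. In DU145 it was 93.8% and 96.1% on that scale, a smaller change than in RWPE-1 from a higher start. The difference between the lines in this respect was described, not tested, since each rests on 1 array.

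**Figure D5:**
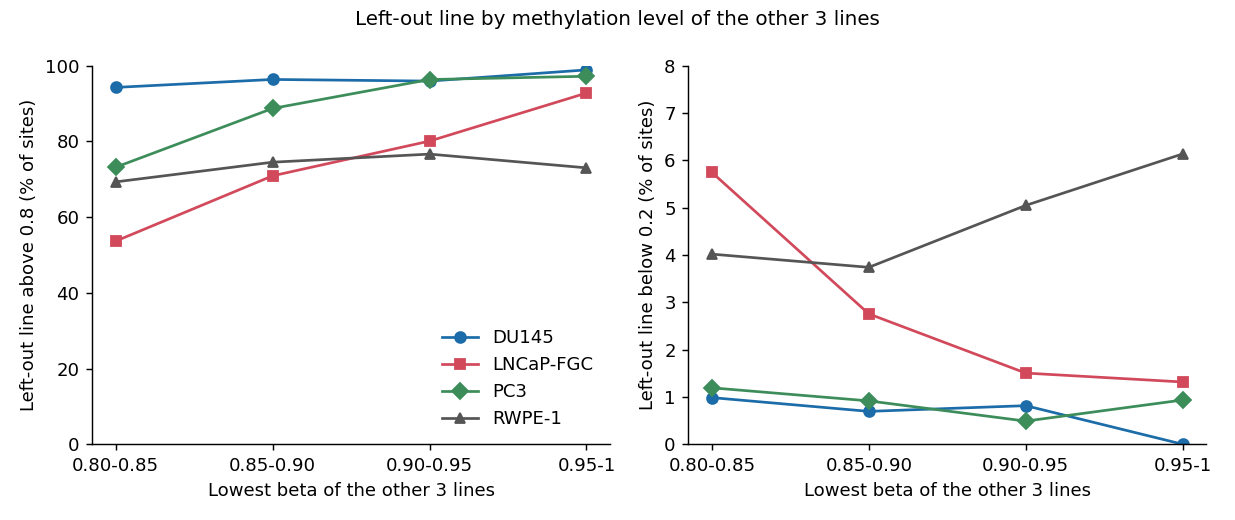
Share of sites at which the left-out line was above 0.8 (left panel, %) or below 0.2 (right panel, %), against the lowest beta of the other 3 lines in 4 bins (horizontal axis). The other 3 lines differ for each left-out line, so the bins hold different sites. In LNCaP-FGC and PC3 the share above 0.8 was larger in bins of higher methylation, reaching 92.8% and 97.2%, while RWPE-1 stayed between 69.3% and 76.6%.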

How the data were processed

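The deposited values are betas, a fraction of signal from 0 to 1 per CpG site, which the authors obtained from bisulfite-converted DNA on HumanMethylation27 arrays read with BeadStudio, per the submitters' processing notes and the labels' protocols. The sources used here name no background or normalization setting. Neither signal intensities nor detection p-values were used, so the signal behind a beta is unknown and precision is limited by the number of arrays. Table columns were matched to samples by line name. Of 27578 sites, 37 with a blank on any array were left out. Sites above 0.8 in all 4 lines were selected with pandas 2.3.3 and described by counts, medians and ranges. The code for the selection and quantile normalization was tested on simulated betas. For the selection no simulated beta lay between 0.79 and 0.81, and no simulated site was above 0.8 in only some of the lines. Sites near the threshold and sites methylated in part of the lines were thus not part of that check. The sites, thresholds and summaries were chosen with earlier results of these data known.

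Sites to name by identifier were 2 each with the highest lowest beta, the widest range over lines, and the lowest beta nearest to 0.8 on either side. The 4 expression arrays and the planned limma fit of expression were left out, because no table used here pairs their probes with these sites. Alternatives were other thresholds, rescaled or quantile-normalized betas, sites with 1 blank kept, and each line left out.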

Additional observations from a re-analysis of the deposited data

Results flagged for a closer look

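At a few always-methylated sites, 2 cancer lines lay on either side of RWPE-1, each with a beta at least 0.05 away from it. None of these differences was tested, as each line had 1 array. DU145 was higher and LNCaP-FGC lower than RWPE-1 at 11 sites (0.701%, against 8.53% of all sites), and the reverse held at 1 site (0.0637%, against 2.02%). DU145 was higher and PC3 lower at 3 sites (0.191%, against 6.27%), and the reverse held at 3 sites (against 1.88%). PC3 was higher and LNCaP-FGC lower at 5 sites (0.318%, against 3.79%), and no site showed the reverse (against 2.38%). The rule that chose the sites confines their differences, so nothing is read from the shares over all sites. The counts depended on the array scale. For DU145 higher and LNCaP-FGC lower they were 5 after rescaling and 1 after quantile normalization, with 1 and 3 sites in reverse. For PC3 higher and LNCaP-FGC lower they were 6 and 0. For DU145 and PC3 they were 5 and 2 with DU145 higher, and 2 and 3 with PC3 higher. These counts on other scales were chosen after seeing the data.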

How the results depend on the processing

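The number of always-methylated sites depended on the threshold, with 2515 sites at 0.7, 989 at 0.85 and 431 at 0.9. It was within 1.5 times of 1570 at a threshold of 0.75 (2053), after quantile normalization (1531, of which 1378 were among the 1570), after rescaling (1883, holding all 1570) and with 1 blank allowed (1571). Requiring only 3 lines gave 1642 to 2285 sites, the fewest without DU145 and the most without LNCaP-FGC. The median difference of DU145 from the mean of the other 3 lines was 0.0228 and turned to -0.00466 after quantile normalization, which gives every array the same distribution. Median betas over the sites each setting chose, given for DU145, PC3, LNCaP-FGC and RWPE-1, were 0.957, 0.947, 0.936 and 0.942 at a threshold of 0.9, and 0.943, 0.930, 0.913 and 0.940 after rescaling. At 0.7 they were 0.884, 0.863 and 0.878 in the last 3 lines, and after quantile normalization 0.901 in DU145 and 0.922 in RWPE-1. The share of sites at which the left-out line was also methylated was, in the same order, 94.3%, 83.5%, 63.0% and 61.7% at 0.9. At 0.7 it was 72.9%, 87.1% and 77.9% in LNCaP-FGC, PC3 and RWPE-1. After quantile normalization it was 81.5% in DU145, 85.7% in PC3, 74.3% in LNCaP-FGC and 79.8% in RWPE-1, and after rescaling 76.4% in RWPE-1. Of all sites, 4.51% (RWPE-1) to 11.5% (DU145) were above 0.9, and 18.3% (RWPE-1) to 29.2% (DU145) were above 0.7. The share of all sites above 0.8 was 16.03% in every line after quantile normalization and 15.4% in RWPE-1 after rescaling. The left-out shares thus have different backgrounds between settings and are not compared directly. The rescaled medians, and the alternatives for the left-out shares and for DU145, were chosen after seeing the data. The alternatives set down for expression were not run. No paired analysis was possible because each line had 1 methylation array and no test was made.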

Other observations

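Of the 37 sites with a blank, 1 was above 0.8 on all its other arrays. This site, cg04382920, singled out after its values were seen, had betas of 0.987 in DU145, 0.978 in LNCaP-FGC and 0.980 in RWPE-1 and was blank in PC3.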
